A study of Homo sapiens with 18 samples.

Results

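The 9 genes described here encode regulators of P-TEFb (positive transcription elongation factor b), its subunits, 1 BET protein and 1 elongation factor that travels with P-TEFb. They are HEXIM1, HEXIM2, LARP7, MEPCE, CDK9, CCNT1, CCNT2, BRD2 and ELL2, 9 of the 22034 genes in the count table. The genes were taken from a list of transcription elongation genes after HEXIM1 was seen to be higher and MYC lower with PBITE-1 at 4 h, so the values at 4 h are given as a description. All 9 passed the filter on low counts that left 14164 genes for testing.

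RNA was sequenced from VCaP, an established prostate cancer line in which the TMPRSS2:ERG fusion drives the ETS factor ERG. Parental VCaP cells received DMSO, or 50 µM PBITE-1, a small molecule that binds the PNT domain of ERG, for 4, 8 or 12 h. The collection time of the DMSO cells is not given in the sources used here. A VCaP line with an ERG hairpin (shERG) under a doxycycline-inducible promoter, with puromycin selection, received DMSO (shERG-DMSO) or 1 µg/mL doxycycline (shERG-Dox), for a time that is likewise not given. Each of the 6 groups held 3 samples, 18 in all. The study's methods call the PBITE-1 samples biological replicates and say in general that biological replicates were used, without naming the hairpin samples. The p-values measure the spread between these samples. No line with a non-targeting hairpin was analysed here, so doxycycline and ERG loss cannot be told apart, and parental and shERG cells differ in line as well as in treatment.

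Total counts per sample ran from 11308600 to 17483423. ERG transcripts fell with doxycycline, from 407 to 431 CPM (counts scaled to library size) in the shERG-DMSO samples to 150 to 157 CPM in the shERG-Dox samples (log2 fold change -1.44, SE 0.04, adjusted p = 3.29e-22). ERG was also lower in PBITE-1 cells, at 184 to 190 CPM at 4 h and 93.2 to 99.7 CPM at 8 h against 294 to 312 CPM with DMSO. All 8 markers of prostate luminal epithelium were detected, and their summed level, 6447 to 6591 CPM with DMSO, was 2654 to 2971 CPM at 12 h of PBITE-1, and 5251 to 5459 CPM with doxycycline against 9012 to 9212 CPM without it. The 8 markers of leukocytes, endothelium, fibroblasts and smooth muscle summed to 4.16 to 5.66 CPM with DMSO and 12.3 to 16.3 CPM at 12 h, with CD3E and DCN never above 3 counts in a sample. They did not move together: at 12 h COL1A1 (log2 2.19), ACTA2 (1.93) and PECAM1 (4.08) rose, VWF fell (-3.28, adjusted p = 8.46e-05) and CD68 did not pass (-0.18, adjusted p = 0.689). PECAM1, VWF and CD68 were read by 0 to 26, 0 to 25 and 7 to 20 counts per sample, so their log2 values rest on few reads. The part of these shifts in the values below was not tested, and in bulk RNA fewer expressing cells and less RNA per cell cannot be told apart.

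P-TEFb is a kinase made of CDK9 and cyclin T1 or T2 (CCNT1, CCNT2) that phosphorylates RNA polymerase II, DSIF and NELF and so releases polymerase paused near promoters. Part of it is held inactive in the 7SK ribonucleoprotein, where HEXIM1 or HEXIM2 inhibits the kinase on the 7SK RNA, MEPCE caps the RNA's 5′ end and LARP7 binds its 3′ end. BET proteins such as BRD2 and BRD3 read acetylated histones through bromodomains. ELL2 raises the elongation rate and joins P-TEFb in the super elongation complex on AFF scaffolds. HEXIM1 took its name from induction by hexamethylene bisacetamide.

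HEXIM1 and HEXIM2 are neighbouring genes on the plus strand of chromosome 17, and their upstream sequences are shown because the paralogs had opposite values with PBITE-1. The windows are the 250 bases before each RefSeq start on GRCh38.p14, at chr17:45148225-45148474 for HEXIM1 and at chr17:45159924-45160173 and chr17:45161625-45161874 for the 2 starts of HEXIM2. Capitals mark a match to the TATA-box letters TATAAA.
HEXIM1: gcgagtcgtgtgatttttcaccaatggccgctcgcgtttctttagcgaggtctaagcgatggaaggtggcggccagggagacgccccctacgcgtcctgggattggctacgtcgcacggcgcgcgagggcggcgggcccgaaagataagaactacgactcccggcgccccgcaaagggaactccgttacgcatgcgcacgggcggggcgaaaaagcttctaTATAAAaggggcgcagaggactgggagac
HEXIM2, first start: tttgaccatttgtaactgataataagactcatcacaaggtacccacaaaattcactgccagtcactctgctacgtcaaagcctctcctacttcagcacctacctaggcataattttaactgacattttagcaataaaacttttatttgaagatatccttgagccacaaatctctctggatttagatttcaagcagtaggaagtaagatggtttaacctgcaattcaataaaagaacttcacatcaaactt
HEXIM2, second start: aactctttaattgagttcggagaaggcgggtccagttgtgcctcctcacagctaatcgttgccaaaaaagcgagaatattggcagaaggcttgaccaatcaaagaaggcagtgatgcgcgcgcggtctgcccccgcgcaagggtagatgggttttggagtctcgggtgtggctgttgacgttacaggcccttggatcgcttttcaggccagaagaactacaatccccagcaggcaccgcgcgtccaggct
The HEXIM1 window holds 1 TATAAA, whose first base lies 29 bases before the start, while neither HEXIM2 window holds one. Searched on both strands, the 250-base windows of 35116 RefSeq promoters held TATAAA in 10.7% of cases, the ETS core CCGGAA in 14.5% and the E-box CACGTG in 6.34%. Neither HEXIM gene had the ETS core or the E-box in these windows. GC content was 62.4% for HEXIM1 and 36.0% and 55.2% for HEXIM2, beside a median of 58.0% over all promoters. Promoter entries were found for 8 of the 9 genes, all but ELL2, with 16 windows in total, and 4 of the 16 windows held the ETS core, 1 each of CCNT1, CDK9, BRD2 and LARP7. A match is a description of letters and not of binding.

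**Figure D1:**
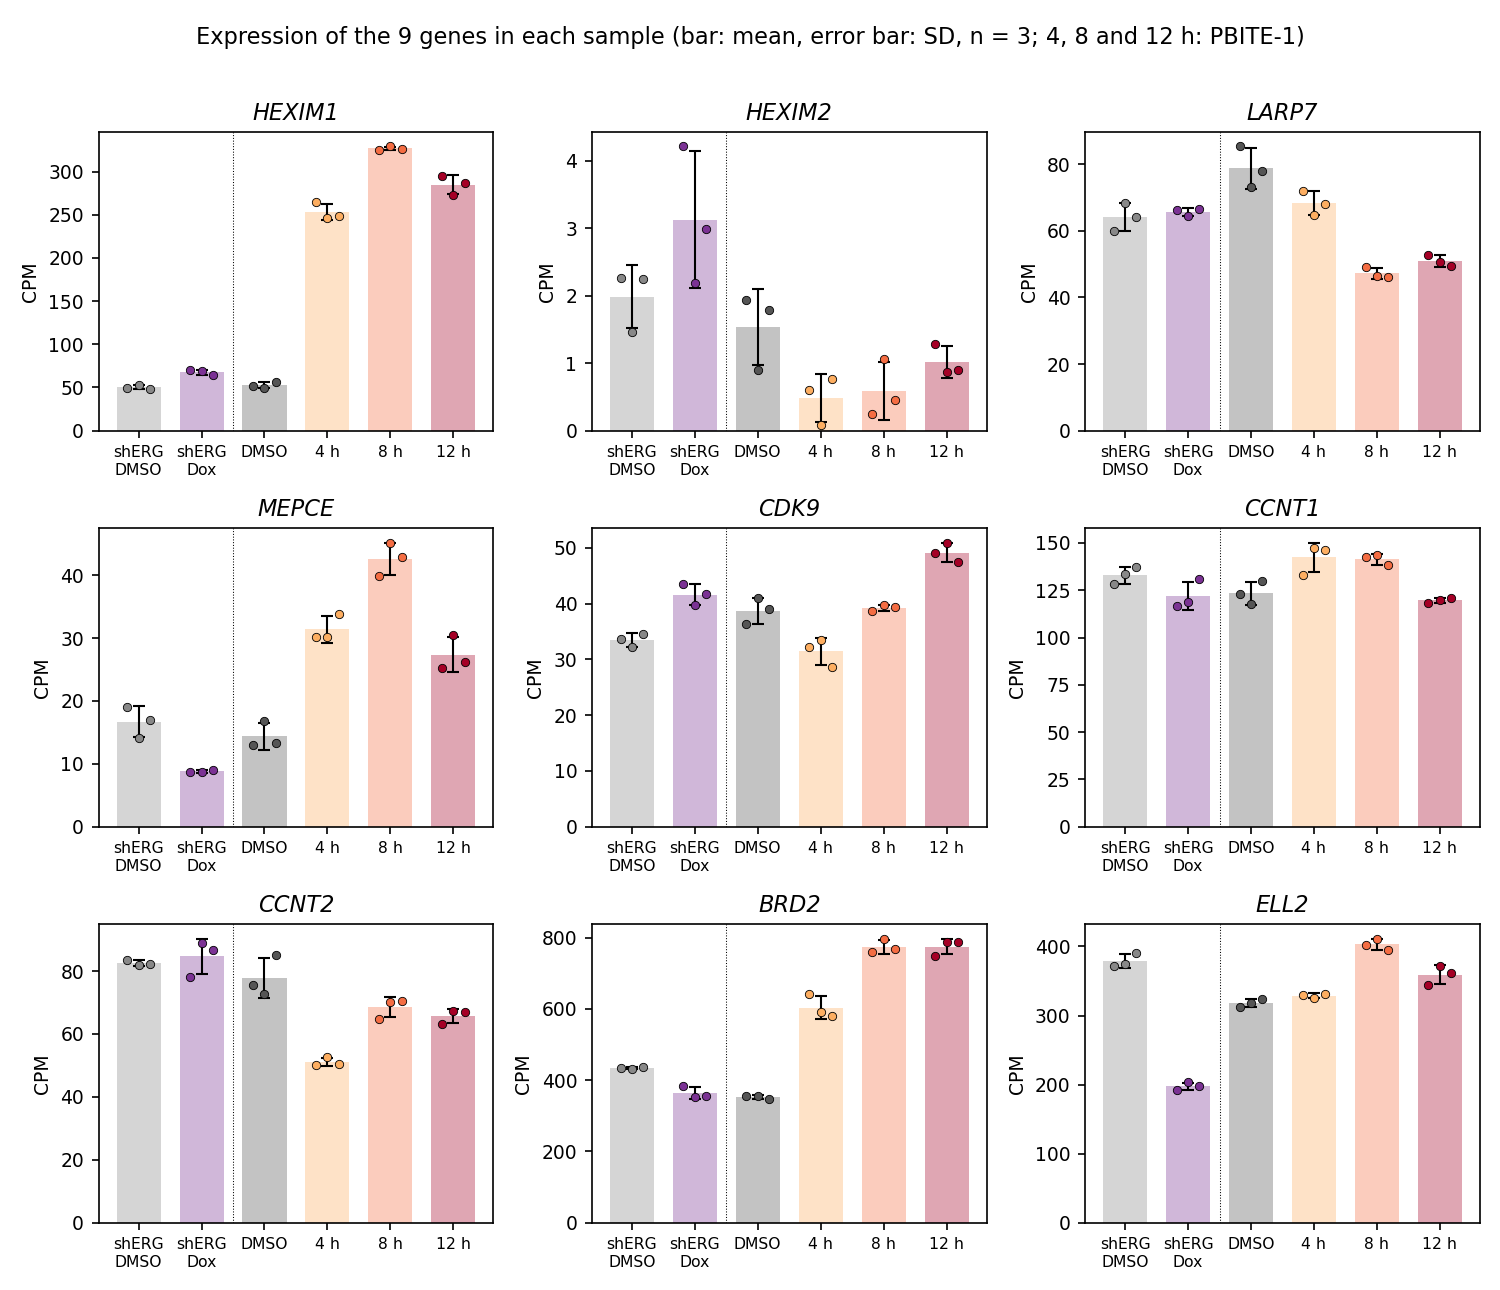
Level of each of the 9 genes in CPM (vertical axes, starting at 0) in every sample of the 6 groups; points are samples, bars are means and error bars are SD with n = 3. HEXIM1 stands at 246 to 329 CPM in all 9 PBITE-1 samples and below 71 CPM in the other 9, while HEXIM2 stays under 5 CPM throughout.

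Among the 7SK components HEXIM1 was the gene that drew the choice. HEXIM1 (ENSG00000186834) lies at 45148502 to 45152101 of chromosome 17, in a single exon of which 520 bases are also exonic in an antisense gene, AC138150.1. Its 3 DMSO samples had 51.4, 49.6 and 56.2 CPM, and the PBITE-1 samples had 265, 246 and 249 CPM at 4 h, 325, 329 and 327 CPM at 8 h and 296, 273 and 287 CPM at 12 h. No PBITE-1 sample came near a DMSO sample, and the 3 times did not overlap with each other. The level was 4.90-fold that of DMSO at 4 h (log2 2.29, SE 0.05), 6.35-fold at 8 h and 5.58-fold at 12 h, values that share the DMSO samples with the choice and carry no test. From 8 h to 12 h, a comparison that the choice did not use, HEXIM1 fell by 0.19 on the log2 scale (SE 0.04, adjusted p = 0.000126).

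The doxycycline samples were not part of the choice either. HEXIM1 stood at 49.5, 52.9 and 48.0 CPM in shERG-DMSO and at 70.2, 68.6 and 64.4 CPM in shERG-Dox, with no overlap. It rose 1.35-fold (log2 0.43, SE 0.06, adjusted p = 2.65e-07), and 47.3% of all tested genes had a smaller absolute change. MYC, the other gene of the choice, encodes a transcription factor that drives growth. Its levels were 445 to 450 CPM in shERG-DMSO and 111 to 122 CPM in shERG-Dox, a fall (log2 -1.95, SE 0.04, adjusted p = 1.25e-24). In parental cells MYC had 344 to 373 CPM with DMSO and 37.0 to 42.0, 27.2 to 30.2 and 36.8 to 51.4 CPM at 4, 8 and 12 h. MYC then rose from 8 h to 12 h by 0.65 on the log2 scale (SE 0.09, adjusted p = 9.17e-08), while HEXIM1 fell over the same interval.

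HEXIM2 (ENSG00000168517, chromosome 17, 45160700 to 45170040), which can replace HEXIM1 in the 7SK particle, was read by 1 to 62 counts per sample. Of its 2038 exon bases, 1026 are also exonic in the antisense gene AC138150.2, and since strand use in counting is not given in the sources used here, reads from overlapping genes of opposite strands cannot be told apart. The counts were 28, 14 and 30 with DMSO, 7, 1 and 10 at 4 h, 4, 15 and 5 at 8 h and 17, 13 and 13 at 12 h. All 3 samples at 4 h lay below every DMSO sample, whereas 1 sample at 8 h lay inside the DMSO range. HEXIM2 fell at 8 h (log2 -1.50, SE 0.50, adjusted p = 0.0078), and without the sample of 4 counts the value was -0.91 with adjusted p = 0.129. At 12 h the log2 difference of -0.50 (SE 0.42, adjusted p = 0.274) did not pass.
With doxycycline HEXIM2 went from 29, 23 and 32 counts to 62, 30 and 41 counts, groups that overlapped. The rise passed (log2 0.65, SE 0.28, adjusted p = 0.0417), but it was 0.41 with adjusted p = 0.245 without the sample of 62 counts, and adjusted p was 0.066 with DESeq2 and 0.153 with no filter on low counts. Nor did HEXIM2 pass with sample weights (adjusted p = 0.0726) or with all 18 samples in 1 fit (0.0602). Without the second shERG-DMSO or the third shERG-Dox sample adjusted p was 0.22 and 0.0669.

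LARP7 (ENSG00000174720, chromosome 4, 112636964 to 112657592), which protects the 3′ end of 7SK RNA, had 85.4, 73.2 and 77.9 CPM with DMSO. Its levels were 64.7 to 71.9 CPM at 4 h, 46.2 to 49.2 CPM at 8 h and 49.5 to 52.9 CPM at 12 h, all below the DMSO samples. LARP7 fell at 8 h (log2 -0.70, SE 0.06, adjusted p = 6.83e-13) and at 12 h (log2 -0.59, SE 0.06, adjusted p = 3.16e-11). With doxycycline it stood at 64.5 to 66.6 CPM, inside the shERG-DMSO range of 60.0 to 68.4 CPM (log2 0.03, SE 0.06, adjusted p = 0.638). LARP7 would be called higher with upper-quartile scaling (log2 0.19, adjusted p = 0.0033) or library size alone (log2 0.29, adjusted p = 3.99e-05).

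MEPCE (ENSG00000146834, chromosome 7, 100428790 to 100434126), the methyltransferase that caps 7SK RNA, went in opposite directions in the 2 experiments. With DMSO the samples had 13.0, 16.8 and 13.3 CPM, and with PBITE-1 they had 30.1, 30.2 and 33.9 CPM at 4 h, 39.9, 45.1 and 42.8 CPM at 8 h and 25.3, 30.6 and 26.2 CPM at 12 h. Every treated sample was above every DMSO sample, with the highest levels at 8 h. MEPCE rose 3.02-fold at 8 h (log2 1.60, SE 0.10, adjusted p = 9.52e-18) and 1.97-fold at 12 h (log2 0.98, SE 0.10, adjusted p = 4.55e-11). It fell between 8 and 12 h by 0.62 on the log2 scale (SE 0.08, adjusted p = 3.01e-08). In the hairpin line the samples went from 19.0, 14.1 and 16.9 CPM to 8.63, 8.66 and 9.04 CPM, with no overlap. That fall was 1.87-fold (log2 -0.90, SE 0.13, adjusted p = 4.84e-07). MEPCE shares 203 exon bases with ZCWPW1 on the opposite strand.

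**Figure D2:**
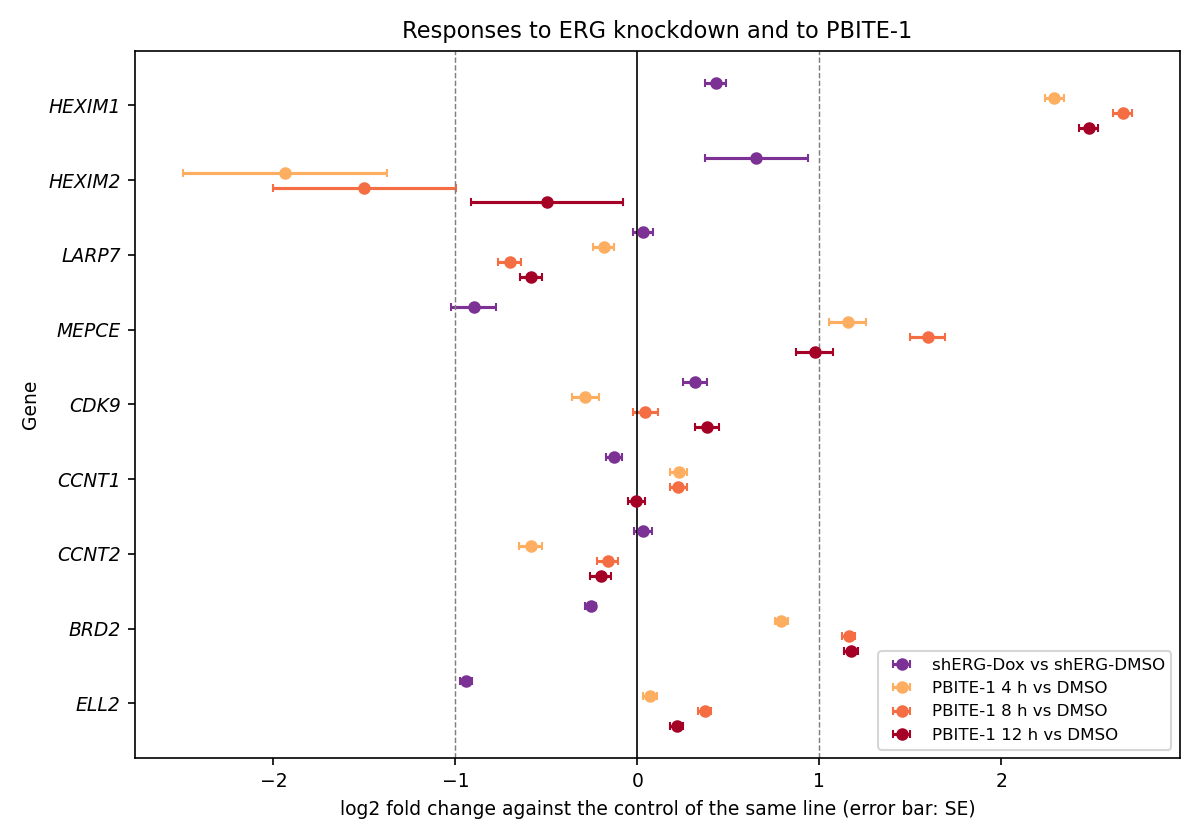
Log2 fold change (horizontal axis, error bars SE) of each gene with doxycycline against shERG-DMSO and with PBITE-1 at 4, 8 and 12 h against DMSO; dashed lines mark 2-fold, a log2 value of 1. MEPCE, BRD2 and ELL2 lie below 0 with doxycycline (BRD2 at 0.01 with library size alone) and above 0 at all 3 PBITE-1 times, whereas HEXIM1 lies above 0 in all 4 comparisons.

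The 3 P-TEFb subunits had changes under 2-fold against their controls throughout. CDK9 (ENSG00000136807, chromosome 9, 127785679 to 127790787), the kinase itself, had 36.2, 40.9 and 39.0 CPM with DMSO and 32.2, 33.4 and 28.6 CPM at 4 h. At 8 h it had 38.6, 39.7 and 39.4 CPM and at 12 h 49.0, 51.0 and 47.4 CPM. The 4 h samples were below all DMSO samples and the 12 h samples above them, while the 8 h samples lay within the DMSO range. CDK9 rose at 12 h (log2 0.38, SE 0.07, adjusted p = 2.29e-06) but not at 8 h (log2 0.04, SE 0.07, adjusted p = 0.578), and it rose from 8 h to 12 h (log2 0.34, SE 0.07, adjusted p = 4.5e-05). With doxycycline it rose from 32.2 to 34.6 CPM to 39.7 to 43.5 CPM (log2 0.32, SE 0.07, adjusted p = 0.000151).

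CCNT1 and CCNT2, the alternative cyclins of the kinase, had different time courses. CCNT1 (ENSG00000129315, chromosome 12, 48688458 to 48716998, minus strand) had 118 to 130 CPM with DMSO, 133 to 147 CPM at 4 h, 138 to 144 CPM at 8 h and 118 to 121 CPM at 12 h. It rose at 8 h (log2 0.22, SE 0.05, adjusted p = 6.07e-05) and was back within the DMSO range at 12 h. CCNT2 (ENSG00000082258, chromosome 2, 134918235 to 134959342) had 72.8 to 85.1 CPM with DMSO and 50.2 to 52.6 CPM at 4 h, with no overlap. CCNT2 remained lower at 8 h (log2 -0.16, SE 0.06, adjusted p = 0.0116) and at 12 h (log2 -0.20, SE 0.06, adjusted p = 0.00199). At 8 h, though, adjusted p was 0.157 without the third DMSO sample and 0.113 without the first 8 h sample. From 4 h to 8 h CCNT2 rose (log2 0.42, SE 0.07, adjusted p = 8.03e-07) and CCNT1 differed by less than 0.01 on the log2 scale.
With doxycycline the cyclins changed little: CCNT1 overlapped between groups, at 117 to 131 CPM against 128 to 137 CPM (log2 -0.13, SE 0.04, adjusted p = 0.013). That call depended on the processing. CCNT1 was called higher with library size alone (log2 0.13, adjusted p = 0.0112) and did not pass with upper-quartile scaling (log2 0.03, adjusted p = 0.512), with no filter (adjusted p = 0.0696) or with at least 10 counts in every sample (adjusted p = 0.104). Nor did it pass without the third shERG-DMSO sample, the first shERG-Dox sample or the second shERG-Dox sample (adjusted p = 0.061, 0.0821 and 0.0767). CCNT2 gave a log2 difference of 0.03 (SE 0.05, adjusted p = 0.606), and 0.29 with library size alone (adjusted p = 1.47e-05).

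Levels can be set side by side between genes only per kilobase of exon. On that scale the DMSO cells had, from high to low, 48.2 ± 0.66 CPM per kb of BRD2 (SD, n = 3), 43.4 ± 0.77 of ELL2, 19.3 ± 1.51 of LARP7, 16.7 ± 0.82 of CCNT1, 14.6 ± 0.95 of HEXIM1, 12.9 ± 0.78 of CDK9, 8.57 ± 0.71 of CCNT2, 4.20 ± 0.61 of MEPCE and 0.76 ± 0.28 of HEXIM2. The samples of neighbours in this order did not overlap. HEXIM1 reached 90.8 ± 0.62 CPM per kb at 8 h, above LARP7, CCNT1 and CDK9 and below BRD2 at 106 ± 2.67 CPM per kb.

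Within a sample, HEXIM1 per CDK9 was a ratio of 1.13 ± 0.10 with DMSO (SD, n = 3, CPM per kb) and 6.75 ± 0.56, 6.94 ± 0.06 and 4.84 ± 0.33 at 4, 8 and 12 h. The later fall of HEXIM1 and the rise of CDK9 both enter the lower ratio at 12 h. In the hairpin line HEXIM1 per CDK9 was 1.25 ± 0.11 without and 1.36 ± 0.08 with doxycycline, groups that overlapped, since both genes were higher. Set against the cyclins, HEXIM1 per CCNT1 plus CCNT2 was 0.51 ± 0.03 without and 0.73 ± 0.07 with doxycycline, with no overlap. In parental cells that ratio was 0.575 ± 0.004 with DMSO and 2.83 ± 0.25, 3.40 ± 0.03 and 3.38 ± 0.18 at 4, 8 and 12 h. The ratio of CCNT1 to CCNT2 was 1.95 ± 0.07 with DMSO and 3.43 ± 0.16, 2.54 ± 0.15 and 2.24 ± 0.06 with PBITE-1, so that it was furthest from DMSO at 4 h. These ratios carry no test and do not depend on the scaling of the libraries.

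**Figure D3:**
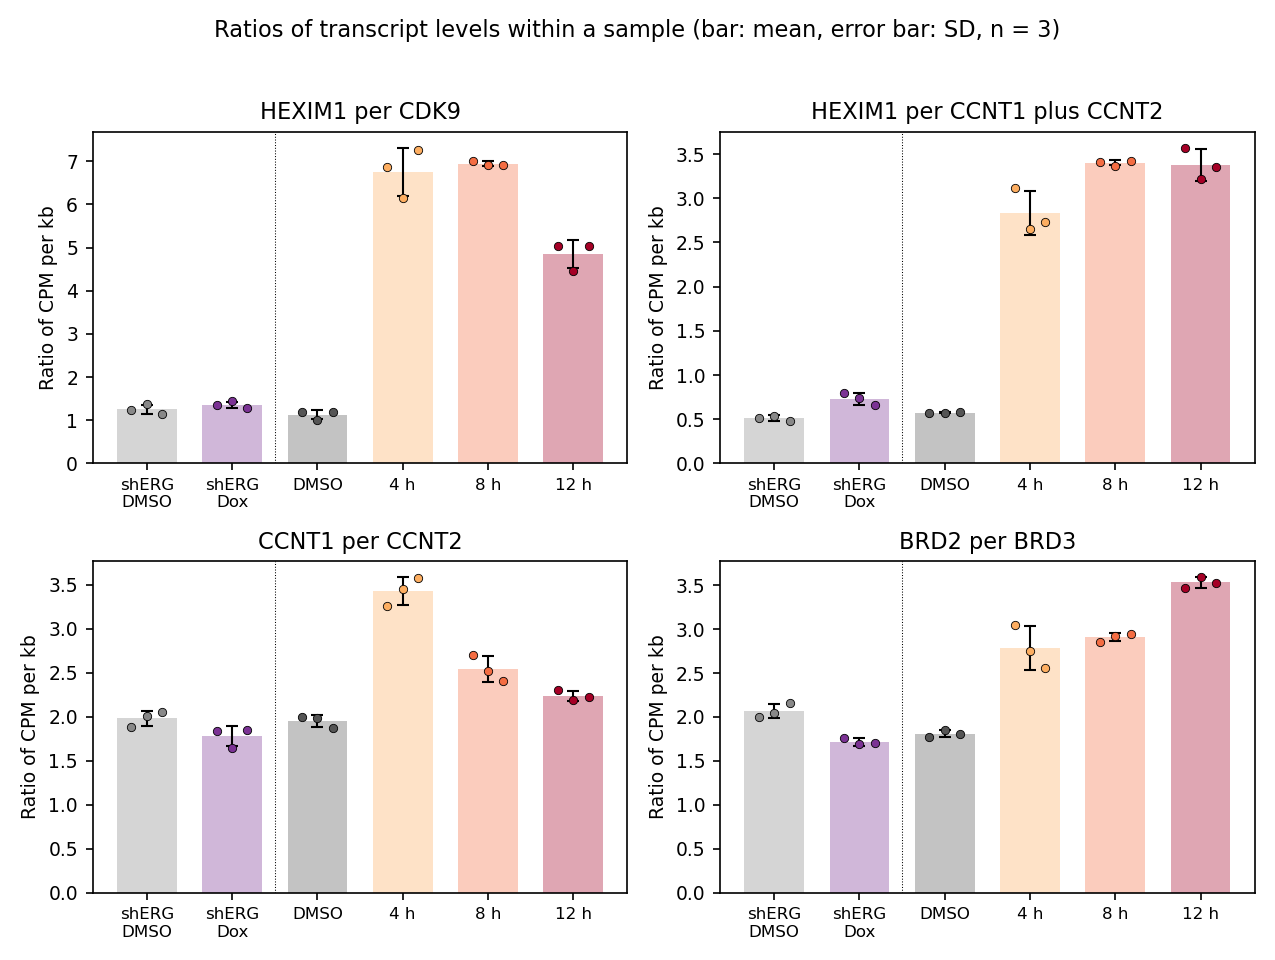
Ratios of CPM per kb within each sample (vertical axes, starting at 0) for 4 pairs; points are samples, bars means and error bars SD with n = 3. HEXIM1 per CDK9 is 1.01 to 1.44 in the 9 samples without PBITE-1 and 4.47 to 7.25 in the 9 with it, and CCNT1 per CCNT2 is highest at 4 h.

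Of the BET genes, BRD2 (ENSG00000204256, chromosome 6, 32968660 to 32981505) was the one listed. BRD2 shares 577 exon bases with the antisense gene AL645941.3 and 55 with HLA-DMA, on the opposite strand, and 243 with AL645941.1 on the same strand. Its DMSO samples had 356, 356 and 348 CPM, and its PBITE-1 samples had 641, 591 and 580 CPM at 4 h, 760, 797 and 767 CPM at 8 h and 749, 786 and 789 CPM at 12 h. All treated samples were above all DMSO samples, and the 8 h and 12 h samples overlapped. BRD2 rose 2.24-fold at 8 h (log2 1.16, SE 0.04, adjusted p = 7.05e-27) and 2.26-fold at 12 h (log2 1.17, SE 0.04, adjusted p = 2.17e-27), with no difference past the threshold between those times (log2 0.01, SE 0.03, adjusted p = 0.757). With doxycycline the samples went from 435, 431 and 437 CPM to 383, 353 and 357 CPM. BRD2 fell there by 0.26 on the log2 scale (SE 0.03, adjusted p = 4.64e-08), a difference of 0.01 (adjusted p = 0.881) with library size alone.

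Its relative BRD3 had smaller values. BRD3 stood at 180 to 189 CPM with DMSO, 245 to 255 CPM at 8 h and 202 to 210 CPM at 12 h. It rose at 8 h (log2 0.48, SE 0.04, adjusted p = 1.51e-13) and at 12 h (log2 0.21, SE 0.04, adjusted p = 1.64e-05). With doxycycline BRD3 did not pass (log2 0.01, SE 0.04, adjusted p = 0.753), but it did with upper-quartile scaling (log2 0.18, adjusted p = 0.000135) and library size alone (log2 0.27, adjusted p = 1.84e-07). BRD2 per BRD3 was 1.81 ± 0.04 with DMSO and 2.79 ± 0.25, 2.91 ± 0.04 and 3.53 ± 0.06 at 4, 8 and 12 h of PBITE-1 (SD, n = 3, CPM per kb), so that the ratio was highest at 12 h. The testis gene BRDT had at most 1 count in any sample.

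ELL2 (ENSG00000118985, chromosome 5, 95885098 to 95962071, minus strand) had its larger change with the hairpin. The shERG-DMSO samples had 372, 374 and 390 CPM and the shERG-Dox samples 192, 203 and 197 CPM, far apart. ELL2 fell 1.92-fold (log2 -0.94, SE 0.03, adjusted p = 5.74e-19), a larger absolute change than 77.6% of tested genes. In parental cells it had 312, 318 and 323 CPM with DMSO, 330, 325 and 331 CPM at 4 h, 403, 411 and 395 CPM at 8 h and 344, 372 and 361 CPM at 12 h. Every PBITE-1 sample was above every DMSO sample, by little at 4 h. ELL2 rose at 8 h (log2 0.37, SE 0.04, adjusted p = 7.99e-12) and at 12 h (log2 0.22, SE 0.04, adjusted p = 1.42e-06). ELL, its paralog, ran from 10.95 to 16.3 CPM over all samples and passed in no comparison as fitted here. With doxycycline ELL passed with upper-quartile scaling (log2 0.30, adjusted p = 0.00985) and library size alone (log2 0.40, adjusted p = 0.000877), its difference between responses passed with library size alone (-0.39), and at 4 h it passed under 4 alternatives, at -0.28 to -0.33. ELL3 had at most 8 counts.

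Counted over the 9 genes, 3 rose with doxycycline (HEXIM1, HEXIM2 and CDK9) and 4 fell (MEPCE, CCNT1, BRD2 and ELL2), where 35.1% of tested genes rose and 35.3% fell. None of the 9 passed the threshold with a change over 2-fold, which 19.2% of tested genes did. Of the 8 genes other than HEXIM1, 4 rose at 8 h of PBITE-1 (MEPCE, CCNT1, BRD2 and ELL2) beside 35.9% of tested genes, and 3 fell (HEXIM2, LARP7 and CCNT2) beside 37.0%. Changes over 2-fold were seen at 8 h for 3 of the 8 (MEPCE, HEXIM2 and BRD2), beside 23.7%.
At 12 h 4 of the 8 rose (MEPCE, CDK9, BRD2 and ELL2) and 2 fell (LARP7 and CCNT2), beside 39.4% of tested genes in each direction. BRD2 alone of the 8 passed with a change over 2-fold at 12 h, beside 32.4%. At 4 h HEXIM1, MEPCE and HEXIM2 had values beyond 2-fold where 10.3% of tested genes were called, a count the choice had already used. Most of these counts are not far from the background shares, so the lists of calls say little about the 9 genes as a group.

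Consecutive times were compared as well. From 4 h to 8 h, 5 of the 8 rose (MEPCE, CDK9, CCNT2, BRD2 and ELL2) beside 26.7% of tested genes, and LARP7 fell beside 26.3%. From 8 h to 12 h CDK9 was the 1 gene of 9 that rose, beside 27.8%, and HEXIM1, MEPCE, CCNT1 and ELL2 fell, beside 32.5%. The median log2 change of the 9 genes from 8 h to 12 h was -0.04, beside -0.04 over all tested genes.
The comparisons with DMSO share those samples, and the comparison of 8 h with 4 h shares the 4 h samples with the choice.

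Whether PBITE-1 and the hairpin gave different changes was tested directly, as the 12 h response minus the doxycycline response. The difference was positive for MEPCE (1.83, SE 0.17, adjusted p = 4.17e-13), BRD2 (1.39, SE 0.05, adjusted p = 3.28e-27) and ELL2 (1.11, SE 0.05, adjusted p = 9.04e-24), 3 of the 8 genes beside 33.3% of tested genes. It was negative for LARP7 (-0.66, SE 0.08, adjusted p = 2.92e-09), CCNT2 (-0.27, SE 0.08, adjusted p = 0.00234) and HEXIM2 (-1.19, SE 0.53, adjusted p = 0.0429), 3 of the 8 beside 35.1%. The HEXIM2 call was lost with no filter on low counts (adjusted p = 0.131), with sample weights (0.0571) and when any of several single samples was left out. CDK9 differed by 0.02 (SE 0.09, adjusted p = 0.825) and CCNT1 by 0.08 (SE 0.07, adjusted p = 0.285), neither past the threshold. For HEXIM1 the value was 2.01 (SE 0.08), given without a test. The treatments were given to different lines, so line and treatment cannot be told apart in this difference.
The untreated lines already differed in 4 of the 8 genes, a difference in which line and experiment cannot be told apart. The CDK9 call there was lost without the second shERG-DMSO or the second DMSO sample (adjusted p = 0.0552 and 0.0586). BRD2 (log2 0.30, SE 0.04) and ELL2 (log2 0.25, SE 0.03) were higher in shERG-DMSO than in DMSO cells, where 23.3% of tested genes were higher, and LARP7 (log2 -0.29, SE 0.06) and CDK9 (log2 -0.21, SE 0.07) were lower, where 23.3% were lower.

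A wider list of 40 elongation genes outside the 9 placed these values in their pathway. The count table held 39 of them, and 37 were tested. With doxycycline 8 of the 37 rose, 17 fell and 12 did not pass, where 35.1% of all tested genes rose and 35.3% fell. At 8 h of PBITE-1 15 rose and 15 fell, beside 35.9% and 37.0%, and at 12 h 17 rose and 13 fell, beside 39.4% in each direction. Their median log2 changes were -0.10, -0.05 and 0.04, beside 0.02, -0.02 and -0.01 over all tested genes. Over the 9 genes the median with doxycycline was 0.03. With library size alone the doxycycline counts became 20 up and 10 down, as the median of all tested genes moved to 0.28, and 7247 tested genes then rose and 3184 fell where 4969 and 5005 did with TMM scaling.

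The 4 factors that free P-TEFb from 7SK all fell with doxycycline, where 35.3% of tested genes fell, and 3 of them did so with library size alone. Among them DDX21, an RNA helicase, fell in both experiments (log2 -1.53, SE 0.03, adjusted p = 4.19e-24 with doxycycline; log2 -1.48, SE 0.04, adjusted p = 5.25e-30 at 12 h), with its lowest value of the time course at 12 h. SRSF2, a splicing factor that also binds promoter-near RNA, had the most negative log2 value at 4 h (-0.52, SE 0.04), and 3 of the 4 factors fell at 12 h, beside 39.4% of tested genes, while JMJD6 rose (log2 0.47, SE 0.09, adjusted p = 8.24e-06).
In the super elongation complex MLLT3, a reader of acylated histones, rose with doxycycline (log2 0.84, SE 0.05, adjusted p = 2.57e-13), and from 8 h to 12 h of PBITE-1 (log2 1.02, SE 0.06, adjusted p = 9.69e-18). EAF2, which binds ELL proteins, was the list's gene furthest lower in shERG-DMSO against DMSO cells (log2 -1.09, SE 0.20). In the opposite direction stood JMJD6, a release factor (log2 0.65, SE 0.08).

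POLR2A, the catalytic subunit of RNA polymerase II, had 135 to 159 CPM with DMSO, 313 to 323 CPM at 4 h, 552 to 567 CPM at 8 h and 290 to 317 CPM at 12 h. It rose at 8 h by the largest log2 value of the list (1.97, SE 0.04, adjusted p = 8.82e-32). Its highest group mean was at 8 h, as for several other genes, HEXIM1, MEPCE, ELL2, BRD3 and CTR9 among them. CTR9, a PAF1 complex subunit, had the list's highest value at 12 h (log2 1.59, SE 0.06, adjusted p = 6.6e-25) and -0.02 with doxycycline (adjusted p = 0.665). IWS1, a partner of SPT6, had the lowest value at 8 h (log2 -1.07, SE 0.07, adjusted p = 9.3e-17). TCEA2, a TFIIS form that rescues stalled polymerase, had the most negative difference between the 12 h and doxycycline responses (-0.99, SE 0.14, adjusted p = 6.69e-08). All 6 DSIF and NELF genes were tested. With doxycycline 4 fell (3 with library size alone) and SUPT5H rose (log2 0.17, SE 0.04, adjusted p = 0.000243). At 8 h 4 fell and none rose, and at 12 h 2 fell and SUPT5H rose, where 35.3%, 37.0% and 39.4% of tested genes fell in these comparisons.

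**Figure D4:**
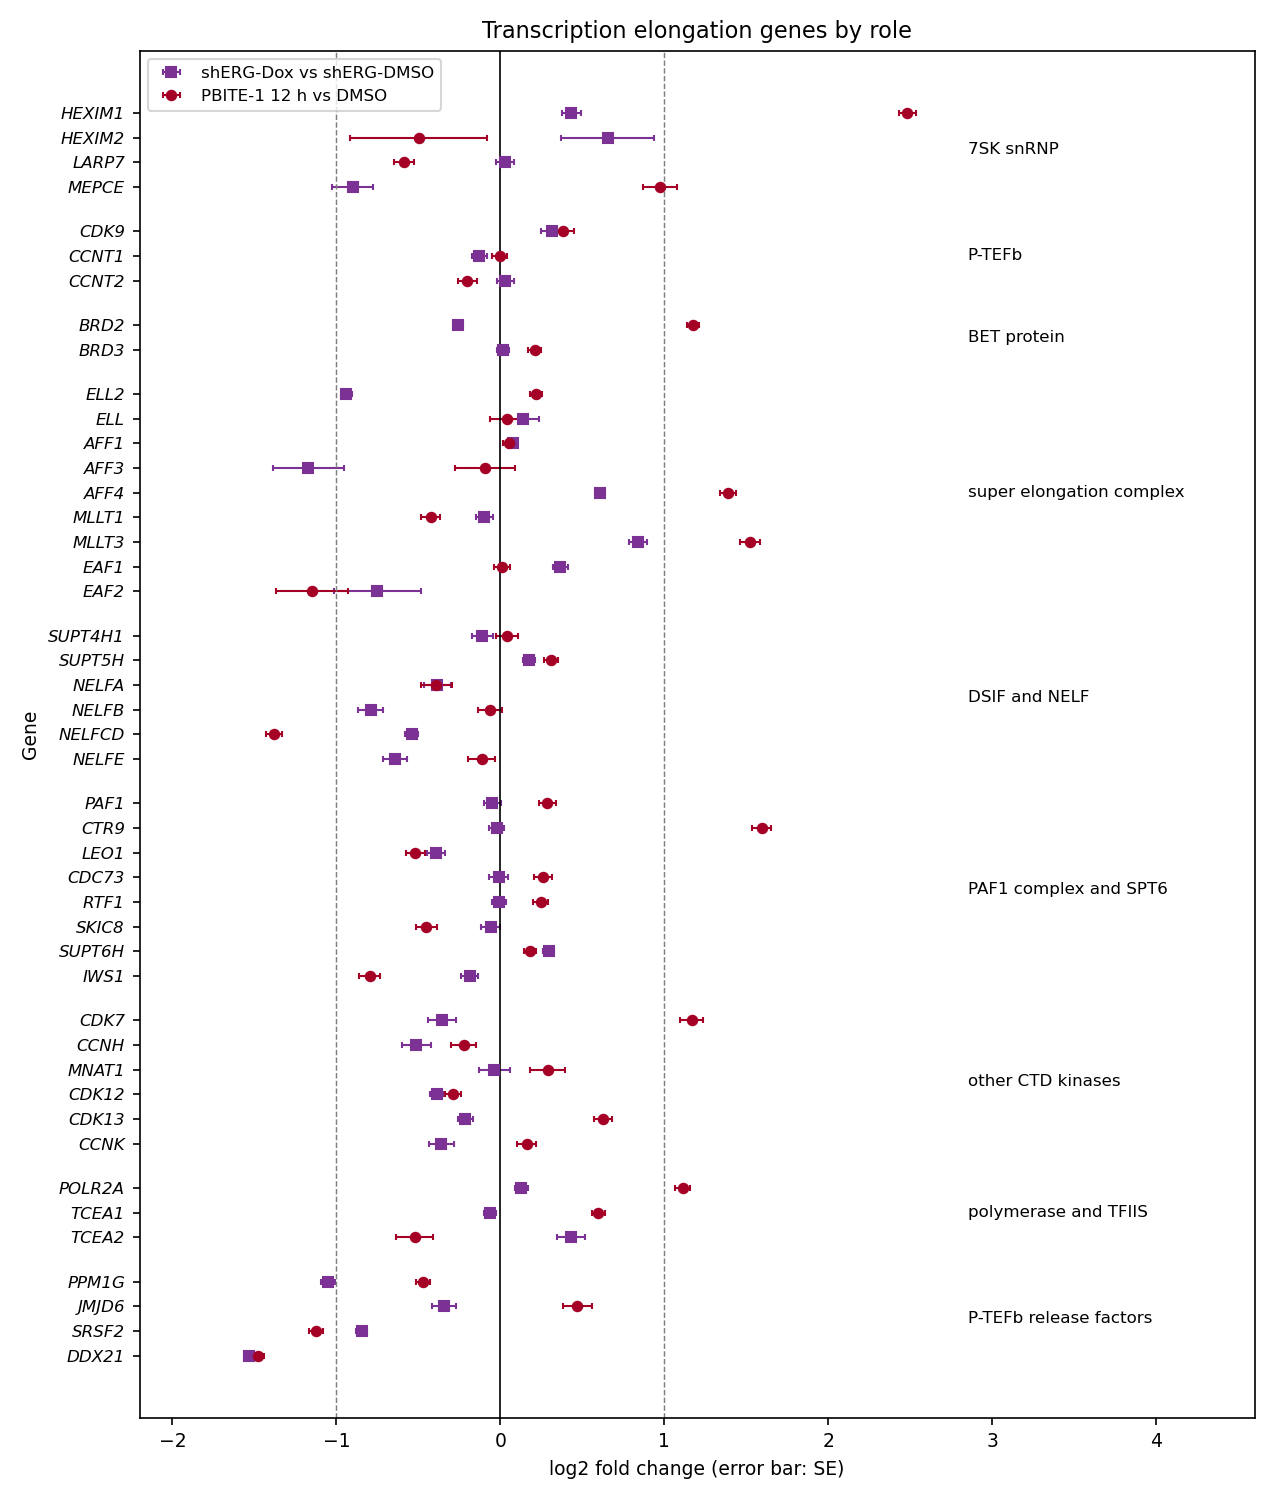
Log2 fold change (horizontal axis, error bars SE) of the 9 genes and 36 tested genes of the wider list, grouped by role, with doxycycline against shERG-DMSO (squares) and with PBITE-1 at 12 h against DMSO (circles); dashed lines mark 2-fold. DDX21 lies near -1.5 in both, while CTR9 and BRD2 lie beyond 1 at 12 h and at or below 0 with doxycycline under TMM scaling (BRD2 at 0.01 with library size alone).

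Genes whose log2 CPM followed a member most closely over the 18 samples were found among 11311 genes with a mean count of at least 50. For HEXIM1 they were TENT5C, a poly(A) polymerase (Pearson r = 0.997), ZSWIM6 (0.994) and the histone gene H2BC5 (0.993), whose near-identical copies make its reads uncertain. For CDK9 they were RNF185, an E3 ubiquitin ligase (0.932), ARHGAP32 (0.922) and MAPK8IP3 (0.921). BRD2 was followed by ASNS, asparagine synthetase (0.990), SLC38A2, an amino acid transporter (0.989), and CEP164, a centriole protein (0.988). ELL2 was followed by SFPQ, a splicing factor (0.975), and CNOT1, the scaffold of the main deadenylase (0.974).
The size of the changes was close to that of the member for some neighbours and not for others. With doxycycline ZSWIM6 had a log2 change of 0.40 where HEXIM1 had 0.43, and RNF185 had 0.26 where CDK9 had 0.32. TENT5C had a log2 change of 4.38 at 8 h where HEXIM1 had 2.67, and ASNS had 3.62 where BRD2 had 1.16. These correlations rest on 6 groups of 3 libraries that share treatments and are a description without a test.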

How the data were processed

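Counts per gene were measured by RNA-seq in 18 VCaP samples (6 groups of 3). Libraries were made, per the labels, with the KAPA RNA HyperPrep kit with RiboErase, which removes ribosomal RNA, and sequenced as paired ends on an Illumina NovaSeq. The authors deposited raw gene counts, not normalized. Their methods name Kallisto and the submitters' processing notes name STAR and featureCounts with hg38. Which of these made the table, the annotation and the use of strand are not given in the sources used here. The values are whole numbers.

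Counts were filtered with edgeR 4.0.16 (filterByExpr, minimum count 10), which left 14164 of 22034 genes (64.3%), scaled by TMM and tested with limma 3.58.1 (voom, R 4.3.3), as the study's methods name limma-voom. Doxycycline (6 samples) and PBITE-1 (12 samples) were fitted separately, and the difference between responses and the baseline on all 18 samples. A gene rose or fell at a Benjamini-Hochberg adjusted p under 0.05 over all tested genes, and 2-fold calls also needed an absolute log2 change above 1. CPM use TMM factors over all 18 samples, and lengths and positions come from GENCODE 29 (GRCh38), matched by Ensembl ID. Promoter windows come from RefSeq. The smallest library (11308600 counts) makes 3 counts 0.276 CPM.

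The members and lists were chosen with earlier results of these data known. Named were all 9 members, ERG, MYC, close paralogs, the list's extreme gene in each direction per comparison, and the 3 genes most like HEXIM1, CDK9, BRD2 and ELL2. Of these, 2 genes are not reported here. The 7SK RNA is not analysed here. The script was tested on simulated data. Alternatives were other scalings, edgeR's quasi-likelihood test, DESeq2 1.42.0, other filters, sample weights, other fits and leaving out each sample. Same-numbered samples were checked for pairing, and no pair of samples in a group agreed within sampling noise (chi-square per degree of freedom from 1.70).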

Additional observations from a re-analysis of the deposited data

Results flagged for a closer look

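For 6 of the 8 genes other than HEXIM1, the response to PBITE-1 at 12 h and the response to doxycycline differed by the interaction test. The log2 differences were 1.83 for MEPCE, 1.39 for BRD2, 1.11 for ELL2, -0.66 for LARP7, -0.27 for CCNT2 and -1.19 for HEXIM2. For MEPCE, BRD2 and ELL2 the 2 responses had opposite signs, except that BRD2 with doxycycline was at 0.01 with library size alone. HEXIM2 rests on 13 to 62 counts per sample in these 4 groups, and its adjusted p of 0.0429 became 0.131 with no filter on low counts and 0.117 without the second shERG-DMSO sample. The treatments were given to different lines, and the doxycycline time is not given, so line, dose time and treatment cannot be told apart. No group had enough samples for a check of single outlying samples.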

How the results depend on the processing

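Of 1666 recomputed values of the 9 genes, 5 changed sign with a call in at least 1 of the 2 fits, 29 lost a call and 16 gained one. The other 1616 kept their side of the threshold. Some of these, without a call in either fit, did change sign, such as CDK9 at 8 h (-0.02 with library size alone). Scaling mattered for doxycycline, whose libraries had TMM factors near 1.17 and the others 0.948 to 0.991. With library size alone the log2 changes with doxycycline were 0.0054 for BRD2 and 0.13 for CCNT1 (0.033 with upper-quartile scaling), and the differences between responses were -0.11 for BRD3, -0.18 for CCNT1 and -0.24 for CDK9. The count of members higher with doxycycline, 3, became 5 with upper-quartile scaling and 6 with library size alone, the count lower, 4, became 2 with library size alone, and members with a lower response to PBITE-1 than to doxycycline went from 3 to 5. With a change over 2-fold also required, members higher and lower numbered 0 and 0 with doxycycline, 2 and 1 at 8 h, 1 and 0 at 12 h, 0 and 0 for 12 h against 8 h, 0 and 0 for 8 h against 4 h, and 0 and 0 for the untreated lines, and 1 was lower in the difference between responses. With only the groups compared, 2 members rose from 8 h to 12 h in place of 1. Leaving out single samples gave 1 to 3 members lower at 8 h (1 without the first 8 h sample), 1 to 2 higher from 8 h to 12 h (2 without the second 8 h sample), 2 to 4 higher (4 without the third DMSO sample) and 1 to 2 lower (1 without the second shERG-DMSO or the second DMSO sample) in shERG-DMSO against DMSO. Where a sample was left out, its group kept 2 samples and shared the fit's spread. Replicate numbers did not pair the samples, since same-numbered samples correlated at -0.035 to 0.041, and with the replicate number as a block 3 members rose and 4 fell with doxycycline, as without it. In the untreated lines the block gave 3 members higher in place of 2, as CCNT1 then passed (adjusted p = 0.0378). CCNT1 passed there also with RLE scaling (adjusted p = 0.0169), DESeq2 (0.0233) and sample weights (0.0341). It did so too without the first shERG-DMSO, the first shERG-Dox or the third DMSO sample (0.0192 to 0.0485). HEXIM2 was left untested by the requirement of 10 counts in every sample. Apart from scaling and fewer samples, the cause of these shifts was not tested. Depth limits HEXIM2 in particular, at 1 to 62 counts.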
